A study of Mus musculus with 6 samples.

Results

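The interferon-induced GTPases are large proteins that bind and hydrolyse GTP and that cells make in quantity after an interferon signal. The 10 genes described here are the guanylate-binding protein genes Gbp2, Gbp3, Gbp6 and Gbp7, the immunity-related GTPase genes Irgm1, Irgm2, Igtp and Iigp1, and the Mx genes Mx1 and Mx2. They were chosen by name, with earlier results of these data known, and every probeset whose annotation held one of these symbols was taken. All 10 genes had a probeset, and together they had 9 of the 26851 probesets on the array. Of the 9, 6 carried 1 symbol and 3 carried several. One of the 3 is shared by Gbp2 and Gbp2b, one by Irgm2 and Igtp, and one by Gbp6 and 5 of its relatives (Gbp4, Gbp8, Gbp9, Gbp10 and Gbp11), so none of these 3 gives a value for a single gene.

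The samples were mouse embryonic fibroblasts grown in serum-supplemented medium, which the series title names dp53R and whose sample titles carry the word Ras. One group of 3 arrays came from cells with the hairpin construct shSCR, the control, and the other group of 3 from cells with the hairpin shARF, directed at the ARF tumour suppressor of the Cdkn2a locus. The labels give no mouse strain, embryo age, vector, number of clones or interferon treatment for either group. They call the 3 samples of a group biological replicates without saying whether these were separate cultures or animals. The p-values set each group difference against the spread between these samples, and may not extend to other cell lines or animals. Each array gave 1 normalized linear signal per probeset. Array medians were 41.97 to 42.86, and having only 3 arrays a group limits precision. The hairpin's target gene Cdkn2a gave a signal of 535, 539 and 516 on the shSCR arrays and 315, 254 and 286 on the shARF arrays, lower on all 3, and fell by 0.90 ± 0.086 (SE) on the log2 scale (limma, adjusted p = 0.00459). This probeset carries the symbol of the whole gene, so it may not measure ARF alone.

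Guanylate-binding proteins gather on the membranes of bacteria and of vacuoles that hold parasites, and open them to other defences. Among the immunity-related GTPases, Iigp1 is an effector that is loaded onto parasite vacuoles, while Irgm1, Irgm2 and Igtp sit on the cell's own membranes and keep such effectors switched off there. Mx proteins block the replication of viruses. Type I interferon acts on such genes through a complex with STAT2 and IRF9 that binds the interferon-stimulated response element (ISRE), and interferon gamma acts through the gamma-activated site (GAS). Guanylate-binding protein and immunity-related GTPase genes answer to both types of interferon, and Mx genes mainly to type I and type III.

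The stretches before the start sites of the member genes are shown as background, since they hold letters through which interferon signals are known to reach such genes. Whether these letters had a part in the differences between shARF and shSCR was not tested. RefSeq windows of 300 bases, from 250 before to 50 after each start, were at hand for 6 of the 10 genes on build GRCm38.p6: Gbp2, Gbp3, Gbp7, Irgm1, Irgm2 and Igtp. The ISRE was searched as GAAANNGAAA and the GAS as TTCNNNGAA, on both strands, with N for any base. The stretches run 5′ to 3′ along the gene's strand and end before the start site, and capitals mark ISRE and GAS matches. The first 4, each with an ISRE match, are of Gbp2 (chr3:142620592-142620621, plus strand), Gbp3 (chr3:142559987-142560022, plus strand), Gbp7 (chr3:142530218-142530300, plus strand) and Irgm1 (chr11:48871427-48871462, minus strand).
Gbp2: gaactcttttagTTTCACTTTCactgtctt
Gbp3: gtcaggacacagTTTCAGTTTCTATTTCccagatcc
Gbp7: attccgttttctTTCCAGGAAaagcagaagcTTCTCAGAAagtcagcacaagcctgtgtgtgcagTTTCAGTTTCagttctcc
Irgm1: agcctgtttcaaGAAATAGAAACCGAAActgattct
In Gbp2, Gbp3 and Gbp7 the ISRE lies on the opposite strand and therefore reads as its reverse complement. The capitals in Gbp3 and in Irgm1 are each 2 ISRE matches that overlap, and Gbp7 has 2 GAS matches before its ISRE.

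The stretches of Irgm2 (chr11:58214890-58214930, plus strand) and Igtp (chr11:58199499-58199539, plus strand) are printed with that of Tgtp1 (chr11:48992306-48992346, minus strand), an effector immunity-related GTPase gene, because the GAS and the ISRE have the same spacing in all 3.
Irgm2: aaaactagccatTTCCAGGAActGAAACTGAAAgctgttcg
Igtp: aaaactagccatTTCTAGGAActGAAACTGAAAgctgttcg
Tgtp1: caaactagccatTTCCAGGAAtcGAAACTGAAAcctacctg
In each, 2 bases separate the GAS from the ISRE. Irgm2 and Igtp are identical at 40 of the 41 bases and differ by C16T, counted from 1 at the 5′ end with the base of Irgm2 first. Irgm2 and Tgtp1 are identical at 33 of the 41 bases. Tgtp2, the near copy of Tgtp1, has the same 2 bases between its matches.

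All 6 member genes with a window had an ISRE match, at 1 of the 2 annotated starts in the case of Gbp3, whereas 3.44% of all 32851 windows of this length held one. A GAS match lay in 3 of the 6 (Gbp7, Irgm2 and Igtp) and in 8.3% of all windows. Both matches occurred together in those 3 and in 0.454% of all windows. A match is a run of letters and not a measured site. The members were chosen as interferon-induced genes, and the nearly identical stretches of Irgm2 and Igtp are not independent counts. Of 9 other GTPase genes with a window, 6 had an ISRE match and 4 a GAS match. Ifi47, 9930111J21Rik2 and Irgq had neither, and Irgq is not known as a strong interferon target. Gm12250 (Irgb10), which lies beside Igtp, has 2 ISRE matches and a GAS match (chr11:58183740-58183814, plus strand).
Gm12250: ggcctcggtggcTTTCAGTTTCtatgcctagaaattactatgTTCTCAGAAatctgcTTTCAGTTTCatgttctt
The values of Gm12250 are given below with those of its relatives.

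**Figure D1:**
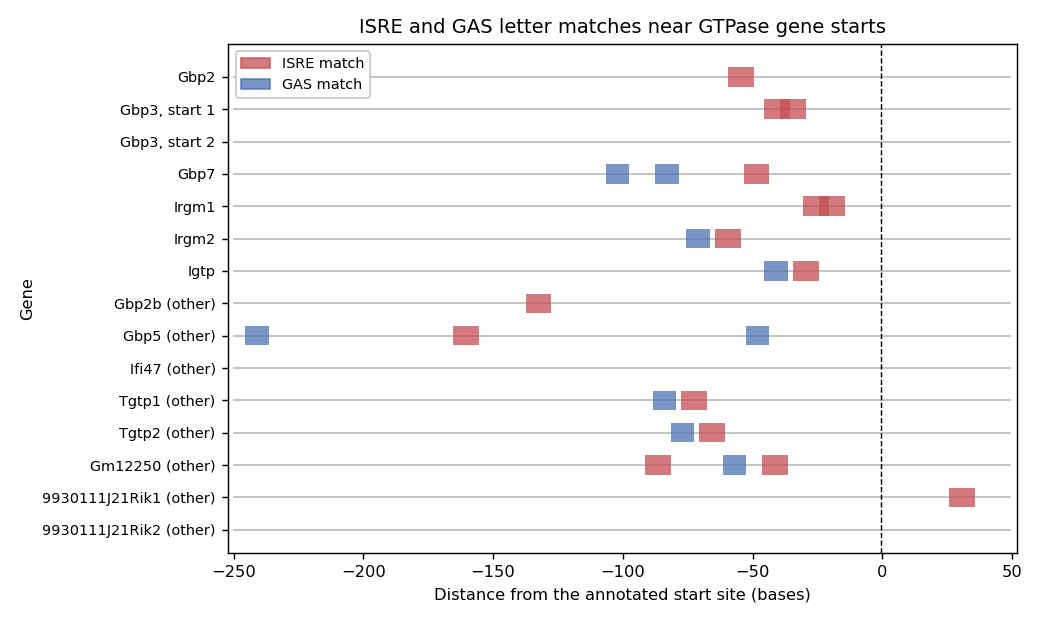
Positions of ISRE matches (red) and GAS matches (blue) as distance in bases from the annotated start site (dashed line), for each window of a GTPase gene with a RefSeq promoter entry, Irgq left out. The second start of Gbp3, Ifi47 and 9930111J21Rik2 have no match, nor does the Irgq window that is not drawn. The ISRE matches of the 6 member genes lie between -64 and -15, and Gbp3 is drawn once for each of its 2 starts.

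The GTPase probesets were higher in shARF cells, with 1 exception at background. Of the 9 probesets, 8 passed the filter on low signal (above the 25th percentile of the array, the detection level of 14.1 to 14.9, on at least 3 arrays). In limma's test all 8 were higher at an adjusted p under 0.05 and 0 were lower, whereas 3.63% of the 20310 tested probesets were called and 1.63% were called higher. All 8 were also at least 2-fold higher, against 0.379% of tested probesets. The members were chosen with earlier results of these data known, so these counts describe the chosen genes and are no independent test. The shARF arrays lay above all shSCR arrays at each of the 8, as they did for 13.5% of tested probesets. Iigp1 passed the filter through the shARF arrays alone, so it had to differ in order to be tested. Mx2 passed through 3 shARF arrays and 1 shSCR array, so its test also depended mostly on its shARF values. The other 6 were above the detection level on all 6 arrays. The ninth probeset, Mx1, was not above it on any array. In bulk RNA, a larger share of cells that express a gene and more of its RNA per cell cannot be told apart.

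**Figure D2:**
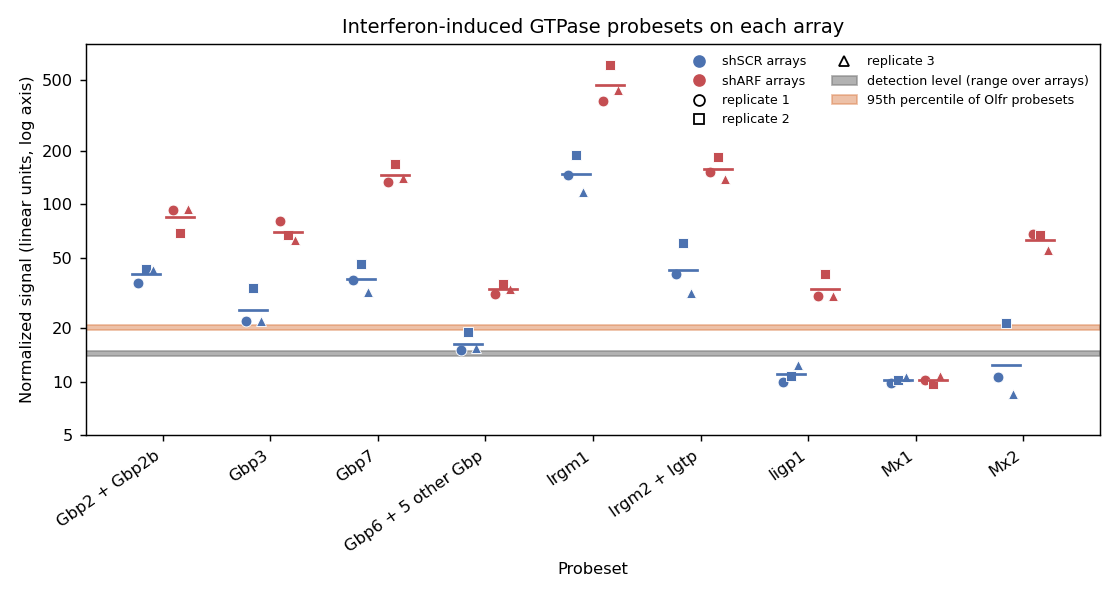
Normalized signal (linear units on a log axis) of the 9 GTPase probesets on the 3 shSCR arrays (blue) and the 3 shARF arrays (red). Symbols mark replicates, short lines the mean of log2 values, and the bands the detection level and the 95th percentile of olfactory receptor (Olfr) probesets. For 8 probesets every shARF array is above every shSCR array, and Mx1 stays near 10 on all arrays, below both bands.

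Among the guanylate-binding proteins, Gbp7 had the largest difference. Gbp7 (probeset 10496569) gave a signal of 37.3, 46.0 and 31.9 on the shSCR arrays, in the order of their replicate numbers as throughout, and 133, 169 and 140.0 on the shARF arrays. The lowest shARF array was far above the highest shSCR array. The log2 difference was 1.95 ± 0.148 (SE), with a 95% interval of 1.60 to 2.29 (limma, adjusted p = 0.00225). Gbp3 (probeset 10496580), its neighbour on chromosome 3, gave 21.9, 33.9 and 22.0 on the shSCR arrays. On the shARF arrays it gave 80.3, 67.3 and 63.1, again without overlap. Its log2 difference was 1.46 ± 0.181, with an interval of 1.04 to 1.88 (limma, adjusted p = 0.00963). Coding sequences of guanylate-binding proteins are alike, so a probeset named for 1 of them may also read another.

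The probeset shared by Gbp2 and Gbp2b (10496592) rose about as much as the probeset of the Gbp6 group. It gave 35.8, 43.1 and 42.9 on the shSCR arrays and 92.9, 69.1 and 94.1 on the shARF arrays. Gbp2 encodes a guanylate-binding protein that is recruited to parasite vacuoles. The log2 difference was 1.06 ± 0.136 (limma, adjusted p = 0.011). A second probeset (10496555) is annotated to Gbp2b alone, and it gave 8.87, 9.37 and 9.67 in shSCR and 10.2, 9.94 and 15.6 in shARF. Only shARF replicate 3 put it above the detection level, so it was not tested. No further probeset carries the symbol Gbp2.

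The probeset of Gbp6 and its 5 relatives (10531994) lay near background in the control cells. It gave 15.0, 19.0 and 15.5 on the shSCR arrays, between the detection level and the 95th percentile of olfactory receptor probesets, which was 19.7 to 20.9 over the arrays. Olfactory receptor genes are not expected to be active in fibroblasts, and their 787 probesets with 1 symbol serve as a second mark of background. On the shARF arrays the probeset gave 31.4, 35.5 and 33.2, above both marks. The log2 difference was 1.02 ± 0.101, with an interval of 0.78 to 1.26 (limma, adjusted p = 0.00523).

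Separate probesets existed for 4 of those 5 relatives, all of them genes of the cluster on chromosome 5 that also holds Gbp6. Gbp4 gave 6.06 to 7.46 in shSCR and 7.83 to 10.8 in shARF. Gbp11 gave 7.32 to 7.82 in shSCR and 9.72 to 11.4 in shARF. Both were below the detection level on every array and were not tested, although their groups did not overlap. Gbp8 gave 12.5, 21.7 and 14.3 in shSCR and 18.9, 14.2 and 21.8 in shARF, and the groups overlapped (log2 difference 0.20 ± 0.229; limma, adjusted p = 0.663). Gbp9 gave 29.1, 30.2 and 29.7 in shSCR and 38.8, 41.4 and 31.4 in shARF. Its groups did not overlap, but the difference of 0.32 ± 0.104 did not pass (limma, adjusted p = 0.152). Of these single-gene probesets only those of Gbp8 and Gbp9 were tested, and neither was called, while the shared probeset was.

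Among the immunity-related GTPases, all 3 probesets were higher in shARF. Irgm1 (probeset 10385500), a regulator that sits on the cell's own membranes, gave 145, 189 and 118 on the shSCR arrays and 382, 608 and 439 on the shARF arrays. The groups did not overlap, although replicate 2 was the highest array of each group. The log2 difference was 1.66 ± 0.214, with an interval of 1.16 to 2.16 (limma, adjusted p = 0.011). Without shSCR replicate 1 the adjusted p was 0.0516, and this call was lost.

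The probeset shared by Irgm2 and Igtp (10376326) was also higher on every shARF array. It gave 40.7, 60.6 and 31.7 on the shSCR arrays and 152, 184 and 139 on the shARF arrays, with replicate 2 the highest in each group. Its log2 difference was 1.88 ± 0.227, with an interval of 1.35 to 2.41 (limma, adjusted p = 0.0091). Both genes lie on chromosome 11 and encode regulatory family members, and the probeset does not separate them.

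Iigp1, the effector, was above the detection level in shARF cells only. Its probeset (10455961) gave 9.97, 10.8 and 12.5 on the shSCR arrays, below the detection level on each. It gave 30.5, 40.4 and 30.4 on the shARF arrays, above both marks of background. The shSCR value is therefore a bound, and with the detection level in its place Iigp1 was at least 2.37-fold higher in shARF. The measured log2 difference was 1.60 ± 0.134 (limma, adjusted p = 0.0032).

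Of the Mx genes, Mx2 was higher in shARF and Mx1 was at background. Mx2 (probeset 10437224), whose protein acts in the cytoplasm, gave 10.7, 21.3 and 8.57 on the shSCR arrays and 68.3, 66.7 and 55.4 on the shARF arrays. Only shSCR replicate 2 was above the detection level among the control arrays, and the groups did not overlap. The log2 difference was 2.34 ± 0.307, with a 95% interval of 1.62 to 3.06 (limma, adjusted p = 0.0114). It was the largest of the 8 on this scale, but not with 16 added to every signal, where it was 1.45, below Gbp7 at 1.59, Irgm1 at 1.56 and Irgm2 with Igtp at 1.55. Without shSCR replicate 1 the adjusted p was 0.0531 and the call was lost, and without shSCR replicate 2 the log2 difference was 2.72. Mx1 (probeset 10441233), known for a nuclear protein that blocks influenza virus, gave 9.86, 10.2 and 10.6 in shSCR and 10.3, 9.72 and 10.7 in shARF. All 6 values lay below the detection level, so no fold is given. RefSeq lists both Mx1 and Mx2 of the C57BL/6J reference as transcribed pseudogenes, and the strain of these fibroblasts is not given in the labels.

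The fitted log2 differences of the 8 probesets ran from 1.02 to 2.34. Among the 6 probesets above the detection level on all arrays, the intervals of the Gbp6 group (up to 1.26) and of the probeset of Gbp2 and Gbp2b (up to 1.38) ended below that of Gbp7 (from 1.60). The interval of the Gbp6 group also ended below that of Irgm2 with Igtp (from 1.35). The intervals of Gbp3, Irgm1, Irgm2 with Igtp and Gbp7 overlapped one another. Differences between probesets were not tested, and folds of dim probesets depend on the scale. When 16 was added to every signal before the log2, the fitted value of Mx2 went from 5.05-fold to 2.73-fold and that of Iigp1 from 3.04-fold to 1.83-fold, while all 8 stayed called.

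**Figure D3:**
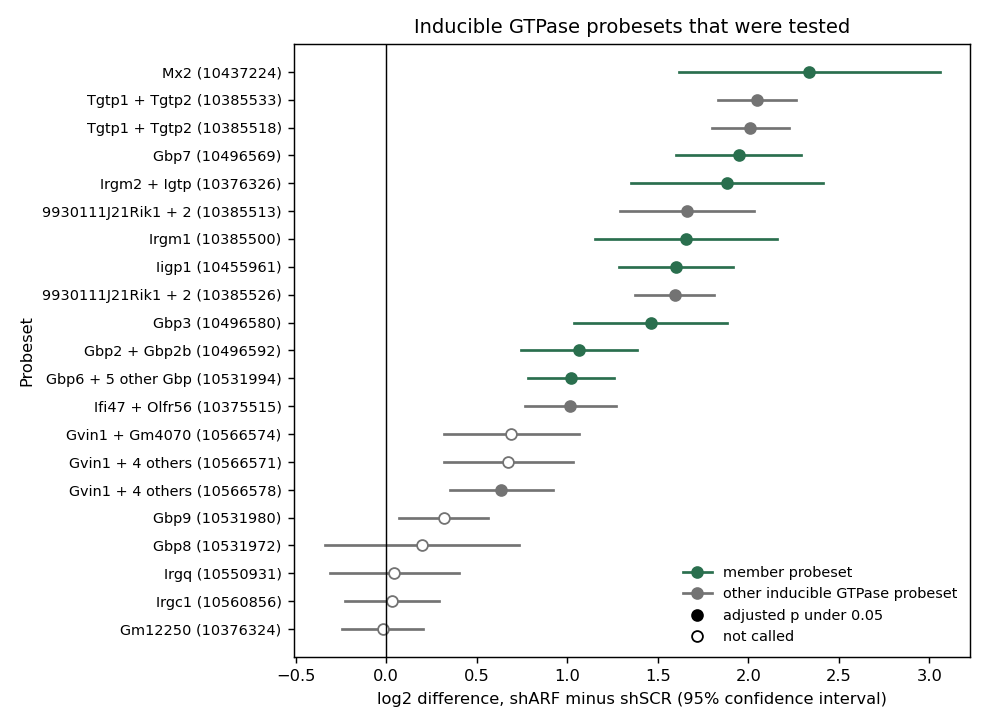
The log2 difference (shARF minus shSCR) of each tested probeset of the member genes (green) and of other listed GTPase genes (grey), with its 95% confidence interval from limma. Irgc1 and Irgq, drawn in grey, are not known as strong interferon targets. Filled points have an adjusted p under 0.05. The member probesets lie between 1.02 and 2.34, and Gm12250, Irgc1, Irgq and Gbp8 have intervals that include 0.

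Among the other inducible GTPase genes, the probesets that were called were all shared by more than 1 symbol. The list held 18 further genes, inducible GTPases and some family relatives, of which 5 were tested through a probeset of their own. These were Gbp8, Gbp9, Gm12250, Irgc1 and Irgq. In limma 0 of these 5 were called, which is near the share of 4.01% over the 15145 genes tested. SAM, the test the study names, also called 0. Over all tested probesets SAM called 1208 (539 higher and 669 lower) and limma 737, so limma's shares are no yardstick for SAM counts. In limma 1 had an unadjusted p under 0.05 (Gbp9), and the median log2 difference was 0.05, beside -0.01 over all tested genes. Gm12250 gave 21.6, 16.8 and 19.3 in shSCR and 18.8, 18.6 and 19.3 in shARF, with a log2 difference of -0.02 ± 0.095 (limma, adjusted p = 0.929). It stayed near the olfactory receptor mark in both groups. Gbp5, a guanylate-binding protein gene on chromosome 3 with an ISRE match and 2 GAS matches, gave 7.55 to 10.2 and was below the detection level on every array. Irgq and Irgc1, family genes that are not known as strong interferon targets, differed by 0.05 ± 0.153 and 0.03 ± 0.11 and were not called.

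The shared probesets of this list are described here after their values were seen. Tgtp1 and Tgtp2, effectors that load onto parasite vacuoles, share 2 probesets. One (10385533) gave 42.0, 43.6 and 34.9 in shSCR and 162, 167 and 167 in shARF, and the other (10385518) gave 31.6, 33.7 and 28.0 against 134, 127 and 115. Their log2 differences were 2.05 ± 0.091 and 2.01 ± 0.091 (limma, adjusted p = 0.00062 for each). The 2 probesets shared by 9930111J21Rik1 and 9930111J21Rik2 differed by 1.66 ± 0.158 and 1.59 ± 0.092 (limma, adjusted p = 0.00459 and 0.00121). A probeset of Ifi47, an immunity-related GTPase gene, also carries the symbol Olfr56 and differed by 1.02 ± 0.107 (limma, adjusted p = 0.0062). The 3 probesets of the very large inducible GTPase Gvin1 and its copies differed by 0.64 to 0.69, and 1 of them was called (limma, adjusted p = 0.0386). The Tgtp, 9930111J21Rik and Ifi47 calls held without any 1 array, and that of Gvin1 was lost without 5 of the 6.

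Among the genes that lie next to the GTPase genes, 0 were called higher in limma. The 5 nearest protein-coding genes on each side of each member, leaving out listed GTPases, came to 61 genes, of which 39 were tested. In limma 1 was lower, beside 1.62% higher and 2.38% lower among all tested genes, so these counts are near those shares. An unadjusted p under 0.05, which 13 of the 39 had, was common on this array. The neighbour Lmo4, at an unadjusted p of 0.0484, had an adjusted p of 0.239 (limma). SAM called 1 higher and 2 lower. The median log2 difference of the 39 was -0.08. Of the 61, 4 carry an older name of the immunity-related GTPase family, and without them 38 were tested, with a highest difference of 0.20. Unc5c, a netrin receptor gene near the Gbp cluster of chromosome 3, gave 209, 222 and 206 in shSCR and 131, 167 and 137 in shARF. It fell by 0.56 ± 0.099 on the log2 scale (limma, adjusted p = 0.0311), a call lost without 5 of the 6 arrays in turn.

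Related GTPases that are not known as interferon-induced genes were not called in limma. Of 13 tested dynamins, mitofusins, atlastins and their kin, which bend, cut or fuse membranes, 0 passed limma's test and 5 had an unadjusted p under 0.05. Of all tested genes, 4.01% were called, so 0 of 13 is near the share over all genes. The median log2 difference was -0.03, and 1 was higher by SAM. Dnm1, a dynamin of endocytosis, had the smallest p and gave 286, 305 and 283 in shSCR and 374, 344 and 348 in shARF (log2 difference 0.29 ± 0.065; limma, adjusted p = 0.0621). Atl3, Dnm1l and Mfn2 differed by -0.21, -0.19 and -0.20.

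Of the genes that carry interferon signals to the GTPase genes, several transcription factors and a brake were higher and a receptor chain was lower. Of 17 tested, 5 rose, 1 fell and 11 were not called in limma, beside 1.62% higher and 2.38% lower among all tested genes. The median was -0.06, and SAM, which called more probesets than limma over the whole array, called 5 higher and 2 lower. The adjusted p of the 6 in limma ran from 0.00459 (Stat2) to 0.023 (Ifngr1). Stat2, whose protein acts at the ISRE with IRF9, rose by 1.19 ± 0.114 on the log2 scale, and Irf9 by 0.91 ± 0.138. Irf7, an amplifier of the response, rose by 1.77 ± 0.243, Usp18, a brake on the type I receptor, by 2.41 ± 0.337, and Irf1, a factor induced by both interferon types, by 0.44 ± 0.07 in the brighter of its 2 probesets; the other differed by 0.20 ± 0.12 and was not called (limma, adjusted p = 0.381). Ifngr1, the ligand-binding subunit of the receptor for interferon gamma, fell by 0.56 ± 0.092. Without 1 array, Usp18 and Irf7 lost their calls in 2 of 6 fits, Irf9 and Ifngr1 in 4, Irf1 in 5 and Stat2 in 0.

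Of the textbook targets of interferon gamma other than the GTPases, 7 of 11 were tested and 4 were below the detection level on every array. Of the 7, with a median of -0.06, 1 was higher in limma and in SAM, beside 1.62% of all tested genes in limma. This was Cxcl9, a T cell chemokine, with 15.2, 14.7 and 12.7 in shSCR and 21.1, 21.4 and 20.3 in shARF. The shARF values lie around the olfactory receptor mark, and the call (0.56 ± 0.081; limma, adjusted p = 0.0154) was lost in 2 of 6 fits without 1 array. Ciita, the master factor of MHC class II genes, gave 13.8 to 16.1 and differed by 0.07 ± 0.074 (limma, adjusted p = 0.658). The class II genes Cd74, H2-Aa and H2-Ab1 were below the detection level on all 6 arrays, as was the interferon gamma gene Ifng at 12.4 to 13.7. A further class II gene of the list, H2-Eb1, gave 23.4 to 24.0 in shSCR and 21.1 to 24.5 in shARF. These values lay above both marks of background on every array, and H2-Eb1 was not called (limma, adjusted p = 0.708).

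Of 11 tested genes of the effector pathway that acts with the GTPases, 2 rose and 0 fell in limma, beside 1.62% higher and 2.38% lower among all tested genes. The median was 0.16, 4 had an unadjusted p under 0.05, and SAM called 3 higher. The 2 were Trim21, a cytosolic antibody receptor and ubiquitin ligase, which gave 46.6, 59.7 and 51.3 in shSCR and 91.0, 97.6 and 98.9 in shARF (0.87 ± 0.097; limma, adjusted p = 0.00739), and Rnf31, which builds linear ubiquitin chains (0.41 ± 0.06; limma, adjusted p = 0.0165). The Trim21 call held without any 1 array and that of Rnf31 was lost in 5 of 6 fits. Lgals3 and Lgals8, galectins that mark damaged vacuoles, differed by 0.40 and 0.31 and were not called. Casp4, the caspase activated downstream of guanylate-binding proteins, differed by -0.12 ± 0.097, and Casp1 and Nlrp3 were below the detection level on every array.

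Of 14 tested genes of the autophagy conjugation machinery, which positions these GTPases on vacuoles, 0 were called in limma or in SAM and 3 had an unadjusted p under 0.05 in limma. Sqstm1, an autophagy receptor, had the smallest p with a difference of 0.27 ± 0.069 (limma, adjusted p = 0.0869), and Gabarapl1 and Map1lc3a, of the ubiquitin-like proteins attached to membranes, differed by 0.23 and -0.38. Of 8 tested prenylation enzymes, which attach lipids to proteins such as some guanylate-binding proteins, 0 were called in limma or in SAM and 0 had an unadjusted p under 0.05. The median of each of these lists was -0.04. Over the 7 lists together, 73 of 95 genes were tested, and 8 rose and 1 fell in limma. Among all tested genes 1.62% were called higher and 2.38% lower, so 0 calls among 14 or 8 genes is near the share over all genes. Of the 8 that rose, 5 were on the list of genes that carry interferon signals.

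**Figure D4:**
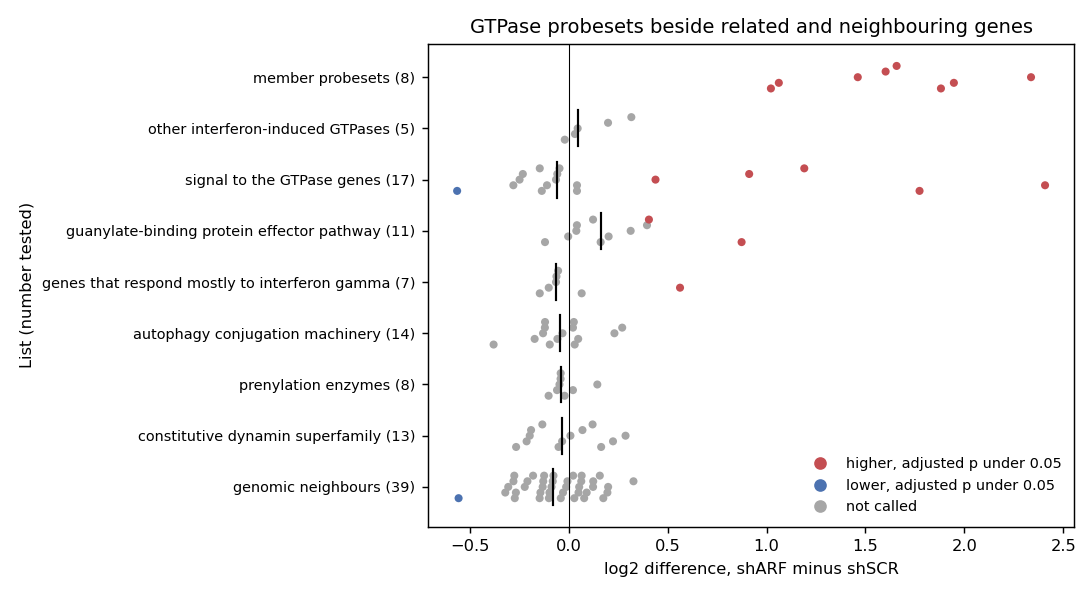
The log2 difference (shARF minus shSCR) of each tested member probeset, of each tested gene on the 7 related lists and of the genomic neighbours. Colours mark calls at an adjusted p under 0.05 in limma and black lines the medians of lists other than the members. The 8 member probesets lie at 1.02 or above, and of the 39 neighbours the highest is at 0.33.

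Replicate 2 was the highest shSCR array at most of the GTPase probesets. Of the 8 tested, 7 had their highest shSCR value on replicate 2, and 5 had their highest shARF value on replicate 2. Averaged over the 5 tested members with a probeset of their own, log2 values relative to each gene's mean were -1.03, -0.54 and -1.13 in shSCR, in the order of the replicate numbers, and 0.85, 1.08 and 0.77 in shARF. The highest control array was thus well below the lowest shARF array. The 5 other genes closest to this profile, by root mean square distance of centred log2 values over the 6 arrays, were Parp9 (an ADP-ribosyltransferase family gene), Irf7, Samd9l, Xaf1 and Lgals3bp (a secreted glycoprotein), at distances of 0.144 to 0.177. The median over the 15140 genes that are no member was 0.933, and among the 5 members Mx2 was the farthest at 0.354. With values scaled to unit SD, Parp9 was the 1 of these 5 genes still among the nearest 5.

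Leaving out 1 array left the direction of each of the 8 unchanged. Of the 8 calls, 6 held in all 6 such fits, and Irgm1 and Mx2 were lost without shSCR replicate 1. Without both replicate 2 arrays all 8 were called.

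**Figure D5:**
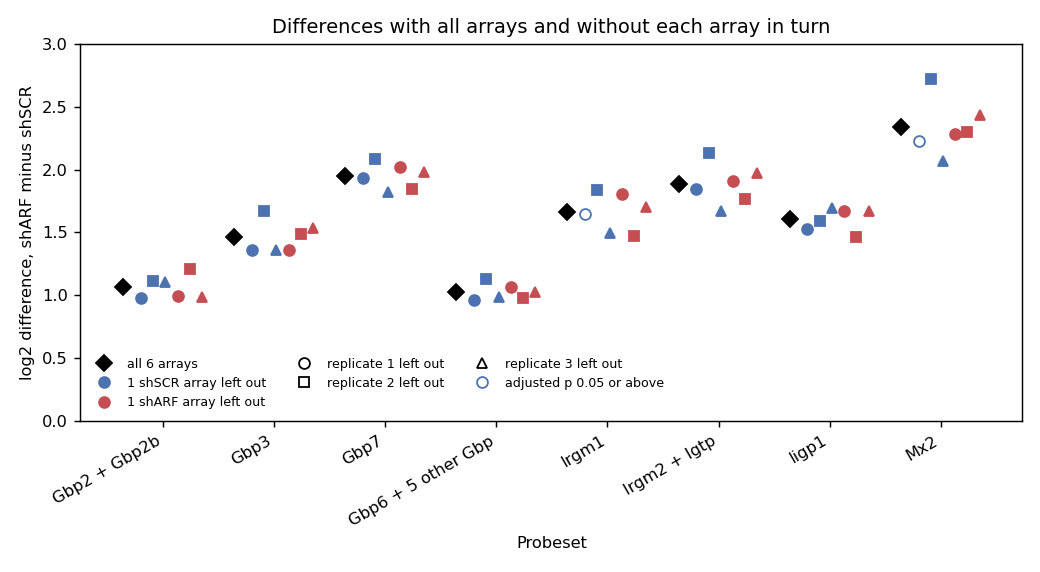
The log2 difference (shARF minus shSCR) of the 8 tested GTPase probesets with all 6 arrays (black diamonds) and without each shSCR array (blue) or shARF array (red) in turn. Open symbols have an adjusted p of 0.05 or above in limma. The values stay between 0.96 and 2.72, and the 2 open symbols are Irgm1 and Mx2 without shSCR replicate 1.

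Markers of the labelled cell type were present, and those of other cell types were in part at background. The 10 fibroblast markers were all tested, 0 were called in limma, where 5 had an unadjusted p under 0.05, and SAM called 1 higher and 1 lower. Of all tested genes, 4.01% were called in limma, so 0 of 10 is near that share. Of 12 macrophage markers 5 (Adgre1, Csf1r, Itgam, Lyz2 and Ptprc) were below the detection level on all 6 arrays and the other 7 were tested. Of these 7, 5 had a positive difference, 3 had an unadjusted p under 0.05, and 1, the leukocyte gene Cd53, was higher in limma and in SAM (0.66 ± 0.132; limma, adjusted p = 0.0442). The Cd53 call was lost in all 6 fits without 1 array. The 12 together summed to 275 to 308 on shSCR arrays and to 287 to 328 on shARF arrays. Of 9 lymphocyte markers with a probeset 6 were below the detection level on all arrays, and their summed signal ran from 114 to 116 in shSCR against 114 to 129 in shARF. The 8 endothelial markers summed to 164 to 184 and 170.0 to 181. In limma 0 of 2 tested lymphocyte and 0 of 6 tested endothelial markers were called, with 1 of each at an unadjusted p under 0.05, and SAM called 0 of either. The 6 epithelial markers summed to 450.0 to 480.0 in shSCR and 519 to 656 in shARF. Of the 5 tested, 3 had an unadjusted p under 0.05, SAM called 2 higher, and limma 1, the keratin gene Krt18 (0.93 ± 0.176; limma, adjusted p = 0.037), a call lost in 5 of 6 fits without 1 array. The part of these markers in the GTPase values was not tested.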

How the data were processed

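RNA of 6 fibroblast samples, 3 per hairpin, was amplified and hybridised to single-channel Affymetrix arrays. The authors deposited 1 linear intensity per probeset, made with RMA (background correction, quantile normalization and summary of probes) in Affymetrix Expression Console from core probesets, per the series' design text and the submitters' processing notes. RMA draws dim signals towards a common low level, so folds of dim probesets are compressed. The genome build and software version are not given in the sources used here.

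Values were turned to log2, with no further normalization, and a linear model with moderated variance was fitted (limma version 3.58.1, R version 4.3.3, two-sided, 3 arrays against 3, no covariates). Of 26851 probesets, those above the 25th percentile of their array on at least 3 arrays were tested (20310), with Benjamini-Hochberg adjustment over all of them and a threshold of 0.05. The platform table gave 1 symbol for 21056 probesets, several for 1450 and none for 4345. A listed gene was read through its tested single-symbol probeset of highest mean. Counts at an unadjusted p under 0.05 are given without the share over all tested genes, so they show no excess in a list. The fit was also run on simulated arrays with independent noise and added changes of known size. That run cannot check the filter, a replicate structure or the compression of dim signals. Alternatives were a replicate block, other filters, a second quantile normalization, an added 16, a trended prior, SAM (the test the design text names), identical probesets kept once, and arrays left out.

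The genes named were all members, up to 4 tested genes of smallest p per list, the 5 nearest in profile, called neighbours and Cdkn2a. Further names (remaining called genes, Casp4, Lmo4, shared probesets, and genes at background) were chosen after their values were seen. Members and lists were chosen with earlier results of these data known. Promoter sequences are RefSeq's (GRCm38.p6), at hand for 6 of the 10 members.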

Additional observations from a re-analysis of the deposited data

How the results depend on the processing

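All 8 member calls held under each alternative run, except that 6 held without shSCR replicate 1, where Irgm1 and Mx2 were lost. Over the whole array 737 probesets were called. The count was 418 with the replicate block, 454 with no filter on dim probesets, 1161 with log2(signal + 16), 1559 with a trended prior, 1208 with SAM and 174 without both replicate 2 arrays, and it ranged from 185 to 393 without 1 array. The 7 lists together gave 9 calls, 14 with log2(signal + 16), 18 with a trended prior, 4 without both replicate 2 arrays, and 3 to 8 without 1 array. Of the 5 genes nearest to the member profile 1, Parp9, was still among the nearest 5 when values were scaled to unit SD. Probesets above the background level on all 3 shSCR arrays numbered 6, and 9 and 5 with the median and the 95th percentile of olfactory receptor probesets as that level. Array numbers were not taken as pairs: deviations of same-numbered arrays correlated at 0.0778, 0.0518 and 0.000618, and not every array correlated best with its own number. With the replicate block all 8 member probesets were called, and of the lists 6 genes were higher and 0 lower: Ifngr1, Irf1 and Rnf31 lost their calls (limma, adjusted p = 0.0561, 0.0635 and 0.0561). The number of arrays, and signal near background for Iigp1, Mx1, Mx2 and the Gbp6 group in shSCR, limit the precision.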

Other observations

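The 4 neighbours with an older immunity-related GTPase name include 2 that lie beside Iigp1. Gm4951 (Ifgga2) gave 7.75, 9.31 and 6.59 on the shSCR arrays and 14.4, 22.4 and 13.1 on the shARF arrays. It was above the detection level on 2 shARF arrays only and was not tested. Gm4841 (Ifgga3) gave 13.3, 14.5 and 13.2 in shSCR and 15.8, 17.8 and 17.8 in shARF, with a log2 difference of 0.33 ± 0.075 (limma, adjusted p = 0.064). Gm12185 (Irgb2b1), near Irgm1, gave 6.18 to 10.1 and was below the detection level on every array. These genes were singled out after their values were seen.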
